A study of Mus musculus with 3 samples.

Results

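The small leucine-rich proteoglycans (SLRPs) of the mandibular condyle are described here by 10 genes, *Dcn*, *Bgn*, *Aspn*, *Fmod*, *Lum*, *Prelp*, *Omd*, *Kera*, *Ogn* and *Epyc*. They were taken by gene symbol from a table of 26970 genes, and all 10 were found in it once. Their Ensembl identifiers in the table are ENSMUSG00000019929 (*Dcn*), ENSMUSG00000031375 (*Bgn*), ENSMUSG00000021388 (*Aspn*), ENSMUSG00000041559 (*Fmod*), ENSMUSG00000036446 (*Lum*), ENSMUSG00000041577 (*Prelp*), ENSMUSG00000048368 (*Omd*), ENSMUSG00000019932 (*Kera*), ENSMUSG00000021390 (*Ogn*) and ENSMUSG00000019936 (*Epyc*). RNA sequencing had been done on TMJ condyles of 4-month-old mice, dissected with cartilage and subchondral bone joined. The WT mice were *Dspp*+/+. *Dspp*-/- mice carried a global knockout of dentin sialophosphoprotein on the C57BL/6 background, and *Dspp*+/- mice came from crosses of *Dspp*-/- with C57BL/6 wild-type mice. Each genotype has 1 library. The study states that tissue of 3 animals was pooled into the WT sample and into the *Dspp*+/- sample, and gives no number for *Dspp*-/-. By the study's account, loss of both alleles also damages the teeth, which can alter the loading of the joint in that group.

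SLRPs are secreted proteins with a core of leucine-rich repeats, and several of them carry chondroitin, dermatan or keratan sulfate chains. They bind to collagen fibrils and control how thick the fibrils grow and how they are spaced. Several also hold growth factors such as TGF-β in the matrix. The mandibular condyle is covered by fibrocartilage, and mice that lack both biglycan and fibromodulin are a known model of degeneration of this joint.

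With 1 library per genotype there was no replicate and no test between genotypes. Each difference below is one between single pooled libraries, and fewer cells of a type cannot be told apart from less RNA per cell. Values are FPKM, which is fragments scaled to the length of the gene and the depth of the library. The length is that of all annotated exons of a gene merged. A level compared between genes thus depends on that length, and is too low where the main transcript is shorter. From the size of the steps between low values, 20241568 fragments lay behind the WT values, 23613615 behind *Dspp*+/- and 22253161 behind *Dspp*-/-. Intervals are exact 95% intervals from these fragments (Clopper-Pearson for a fold, Poisson for a level). They hold the error of counting and not the variation from mouse to mouse. Mitochondrially encoded genes held 9.58% of the fragments in WT against 16.5% in *Dspp*+/- and 16.1% in *Dspp*-/-, and FPKM does not adjust for this. The labels of the genotypes were not set against *Dspp* itself, which was not analysed here.

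Of the 10 genes, 8 were abundant in all 3 libraries, *Kera* was low and *Epyc* was close to absent. In WT the order by level was *Fmod*, *Bgn*, *Lum*, *Dcn*, *Aspn*, *Omd*, *Prelp*, *Ogn*, *Kera* and *Epyc*. *Fmod* was the 24th most abundant of all 26970 genes in WT and *Bgn* the 34th, with *Lum* at rank 50 and *Dcn* at rank 81. *Dspp*+/- differed from the WT order by *Dcn* standing above *Lum* and *Prelp* above *Omd*. In *Dspp*-/-, *Aspn* stood above *Dcn* and *Ogn* above *Prelp*. Of the 9 pairs of neighbours in each order, *Prelp* and *Omd* in *Dspp*+/- were the 1 pair whose counting intervals overlapped, and in WT and *Dspp*-/- there was none. Whether neighbours differ beyond the spread between mice cannot be said from 1 library. The order also rests on the merged exon lengths, 3306 bases for *Fmod*, 6099 for *Bgn*, 2448 for *Lum* and 5838 for *Dcn*. By fragments in WT, *Bgn* stood above *Fmod* (86422 against 69090) and *Dcn* above *Lum* (36440 against 25377).

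**Figure D1:**
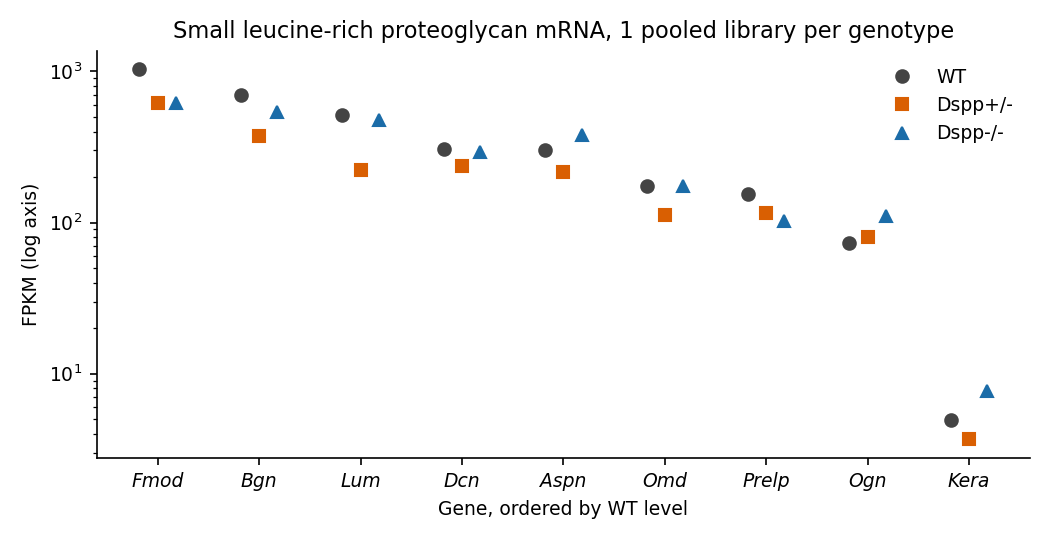
FPKM on a log axis of the 9 SLRP genes whose mean was 1 FPKM or more, with 1 point per pooled library (grey circle WT, orange square *Dspp*+/-, blue triangle *Dspp*-/-). For 8 of the 9 genes the *Dspp*+/- point lies below the WT point, and for *Lum* it lies at 224 against 512 FPKM; *Epyc*, at or under 6 fragments in each library, is not drawn.

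Decorin, biglycan and asporin are the class of SLRPs most alike in sequence. *Bgn*, which encodes biglycan, a chondroitin or dermatan sulfate proteoglycan of bone and cartilage, had 700.04 FPKM in WT against 373 in *Dspp*+/- and 537 in *Dspp*-/-. Its level was thus lowest in *Dspp*+/-, with *Dspp*-/- in between. Against WT, *Dspp*+/- was at a fold of 0.532 (interval 0.527 to 0.538) and *Dspp*-/- at 0.768 (0.760 to 0.775). *Bgn* lies on the X chromosome, where the median log2 ratio of the 414 genes compared was 0.07 in *Dspp*+/- and 0.13 in *Dspp*-/-. *Dcn*, which encodes decorin, the proteoglycan with a single such chain that decorates type I collagen fibrils, had 308 FPKM in WT, with 238 in *Dspp*+/- and 295 in *Dspp*-/-. *Dspp*+/- was again the lowest library, with a fold to WT of 0.772 (0.761 to 0.784). In *Dspp*-/- the fold of *Dcn* was 0.956 (0.942 to 0.970), and it turned to above 1 once mitochondrial fragments were left out of the depth. *Aspn*, which encodes asporin, a collagen-binding protein that can hold TGF-β, had 299.5 FPKM in the WT library, 216 in that of *Dspp*+/- and 378 in *Dspp*-/-. It lay on opposite sides of WT in the mutant libraries, with a fold of 0.721 (0.703 to 0.739) in *Dspp*+/- and of 1.26 (1.23 to 1.29) in *Dspp*-/-.

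The keratan sulfate class was led by *Fmod*, which encodes fibromodulin, a regulator of collagen fibril assembly in tendon and cartilage. *Fmod* had 1032 FPKM in WT against 621 in *Dspp*+/- and 621 in *Dspp*-/-. The mutant libraries were equal within counting error, with a fold of *Dspp*+/- over *Dspp*-/- of 1.00 (0.987 to 1.01), and both were lower than WT at 0.602 and 0.601 of its level. *Prelp*, whose protein links the matrix to basement membranes through an arginine-rich end, had 155 FPKM in WT, with 116 in *Dspp*+/- and 102 in *Dspp*-/-. It was the 1 member that was lower in *Dspp*-/- than in *Dspp*+/- beyond counting error, with folds to WT of 0.659 (0.640 to 0.678) in the former and 0.749 (0.729 to 0.769) in the latter. In GENCODE M21, 9.68% of its exon length overlaps *Gm15851* on the other strand, a gene at 0 FPKM in the WT library, 0.0640 in that of *Dspp*+/- and 0.611 in *Dspp*-/-.

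*Lum*, which encodes lumican, a proteoglycan of cornea, tendon and bone matrix, had 512 FPKM in WT against 224 in *Dspp*+/- and 478 in *Dspp*-/-. It had the lowest fold of the 9 members above the filter in *Dspp*+/-, 0.437 (0.428 to 0.446), while in *Dspp*-/- it was at 0.934 of WT (0.918 to 0.9503), which turned to above 1 when mitochondrial fragments were left out of the depth. *Lum* was thus far lower in 1 mutant library and close to WT in the other. *Omd*, which encodes osteomodulin, an acidic keratan sulfate proteoglycan of mineralized matrix, had 174 FPKM in WT, with 113 in *Dspp*+/- and 173.7 in *Dspp*-/-. WT and *Dspp*-/- did not differ beyond counting error, with a fold of 0.998 (0.968 to 1.03), and *Dspp*+/- was at 0.646 of WT (0.625 to 0.668). *Kera*, which encodes keratocan, known from cornea and also found in osteoblasts and tendon, had 4.92 FPKM in the WT library, 3.68 in that of *Dspp*+/- and 7.67 in *Dspp*-/-. It rests on 227, 198 and 389 fragments in that order, and like *Aspn* it lay on opposite sides of WT, with a fold of 0.748 (0.615 to 0.909) in *Dspp*+/- and of 1.56 (1.32 to 1.84) in *Dspp*-/-.

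Osteoglycin and epiphycan form a class of shorter core proteins. *Ogn*, which encodes osteoglycin, also called mimecan, a factor first isolated from bone, had 73.4 FPKM in WT against 79.7 in *Dspp*+/- and 110.3 in *Dspp*-/-. It was the 1 member above WT in both mutant libraries. *Dspp*-/- was at 1.502 times WT (1.44 to 1.56) and *Dspp*+/- at 1.09 times (1.04 to 1.13). In the latter, *Ogn* turned to below 1 under scaling to summed FPKM without genes of blood cells (hemoglobin, immunoglobulin) and skeletal muscle. With the fragments of the same genes left out of the depth instead, it stayed above 1 (log2 ratio 0.14). *Epyc*, which encodes epiphycan, a proteoglycan of growth cartilage, had 6 fragments in WT, with 1 in *Dspp*+/- and 0 in *Dspp*-/-. These are 0.116 FPKM in WT and 0.0165 in *Dspp*+/-, and the mean was under 1 FPKM. The ratio of *Dspp*+/- to WT was 0.143, with an interval from 0.00311 to 1.18 that includes 1. For *Dspp*-/- the interval reached from 0 to 0.773, and a floor of 3 fragments in place of the 0 puts the level at 0.455 of WT. Moreover, 40.6% of its exon length overlaps *Gm10754* on the other strand, so its fragments cannot be assigned with certainty.

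**Figure D2:**
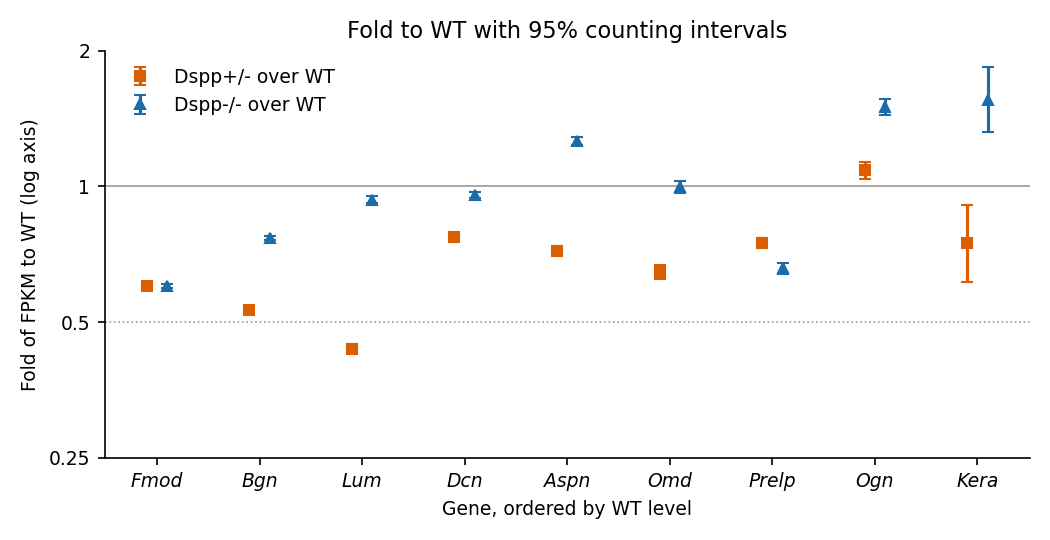
Fold of FPKM to WT on a log axis for *Dspp*+/- (orange squares) and *Dspp*-/- (blue triangles), with 95% counting intervals as bars, a solid line at 1 and a dotted line at 0.5. Only *Lum* in *Dspp*+/- (0.437) lies under the dotted line, and *Fmod* has the same fold in both mutant libraries.

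To count genes past 2-fold, log2 ratios of FPKM + 1 to WT were taken over the 13026 genes whose mean was 1 FPKM or more, which include 9 of the 10 SLRPs. In *Dspp*+/-, 8 of the 9 were lower than WT and 1 was higher, and 1, *Lum*, was at least 2-fold lower. Of all genes compared, 43.7% were lower than WT by any amount, and by the 2-fold threshold 2.86% were lower and 4.88% higher. In *Dspp*-/-, 6 of the 9 were lower and 3 (*Aspn*, *Kera* and *Ogn*) higher, where *Dcn*, *Lum* and *Omd* among the lower ones crossed WT under other scalings, and none was past 2-fold in either direction, against 1.37% of all genes lower and 4.05% higher. By any amount 49.3% of all genes were lower than WT there, beside the 6 of 9 members. The median log2 ratio of the 9 genes was -0.47 in *Dspp*+/- and -0.07 in *Dspp*-/-, the latter turning to above 0 without mitochondrial genes, while that of all genes was 0.06 and 0.01. The members spread from -1.19 (*Lum*) to 0.12 (*Ogn*) in *Dspp*+/- and from -0.73 (*Fmod*) to 0.58 (*Ogn*) in *Dspp*-/-. The WT library is shared by the comparisons.

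The heterozygous and the null library were then compared with each other. In *Dspp*+/-, 7 of the 9 SLRPs had a lower level than in *Dspp*-/- beyond counting error, *Prelp* was higher at 1.14-fold (1.10 to 1.17), and *Fmod* did not differ beyond it. The share of all genes below the null library by any amount was 44.7%. The lowest folds of *Dspp*+/- over *Dspp*-/- were those of *Lum* at 0.468 (0.458 to 0.478), *Kera* at 0.480 (0.402 to 0.571) and *Aspn* at 0.572 (0.559 to 0.585). *Lum* was the 1 member at least 2-fold lower on the log2 scale of FPKM + 1, where 0.852% of all genes were. The median log2 ratio of the 9 genes was -0.53, against 0.04 over all genes compared, and none was at least 2-fold higher, where 0.798% of all genes were.

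The summed FPKM of the 10 genes was 3260 in the WT library, 1983 in that of *Dspp*+/- and 2703 in *Dspp*-/-. This was 1.06% of the FPKM of all genes in WT against 0.551% in *Dspp*+/- and 0.774% in *Dspp*-/-. Without mitochondrially encoded genes the shares were 1.41%, 0.874% and 1.23%. Within the family, *Fmod* and *Bgn* were the most abundant in each library. The shares within the family rest on the merged exon lengths as well. *Fmod* held 31.7% of the family's FPKM in WT, about as much (31.3%) in *Dspp*+/- and 23.0% in *Dspp*-/-. *Lum* held 15.7% in WT against 11.3% in *Dspp*+/- and 17.7% in *Dspp*-/-. *Aspn* held 9.19% in WT, 10.9% in *Dspp*+/- and 14.0% in *Dspp*-/-. *Ogn* held 2.25%, 4.02% and 4.08% in the same order.

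**Figure D3:**
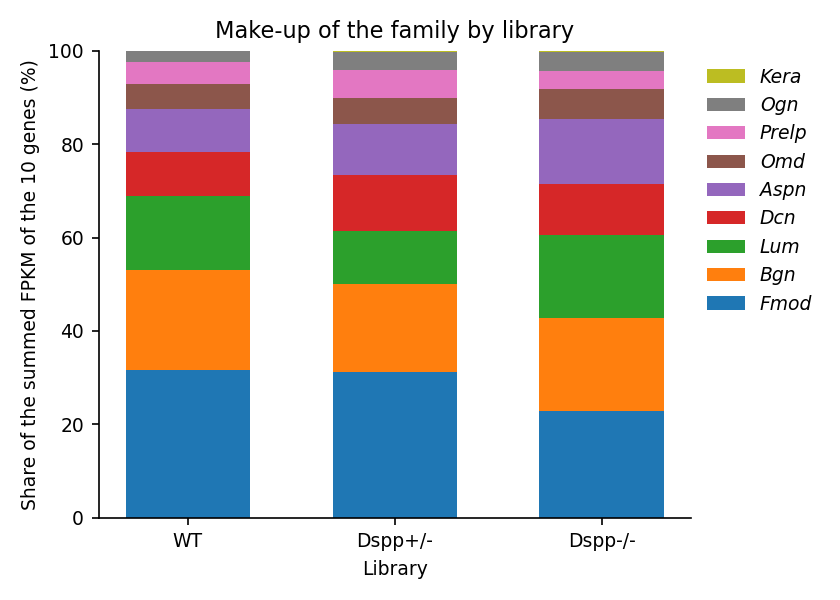
Share in percent of the summed FPKM of the 10 SLRP genes held by each gene, stacked for the WT, *Dspp*+/- and *Dspp*-/- libraries (1 pooled library each; *Epyc* is too low to be drawn). The *Fmod* part is 31.7% in WT and 23.0% in *Dspp*-/-, and the *Aspn* part is 9.19% and 14.0%.

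SLRPs act on the fibrils built from fibrillar collagens, so the collagens were set beside them. All 11 fibrillar collagen genes were lower than WT in both mutant libraries, with median log2 ratios of -1.74 in *Dspp*+/- and -0.89 in *Dspp*-/-. Of all genes, 43.7% and 49.3% were lower in the same order. In *Dspp*+/- 10 of the 11 were at least 2-fold lower, beside 2.86% of all genes, and 10 of the 11 lay below the lowest SLRP, *Lum*. In *Dspp*-/-, 2 were at least 2-fold lower, beside 1.37% of all genes, and 10 of the 11 lay below the lowest SLRP there, *Fmod*. *Col1a1*, the main collagen chain of bone and fibrocartilage, had 6675 FPKM in the WT library, 1719 in that of *Dspp*+/- and 3610 in *Dspp*-/-. *Col2a1*, the cartilage collagen, had 761, 94.2 and 308 FPKM, and *Col11a2*, a chain of the collagen at the core of cartilage fibrils, had 146, 32.9 and 49.3. For each FPKM of *Col1a1* there were 0.488 FPKM of SLRPs in WT against 1.15 in *Dspp*+/- and 0.749 in *Dspp*-/-. Over all 11 fibrillar collagens the ratio was 0.286 in WT against 0.689 in *Dspp*+/- and 0.444 in *Dspp*-/-. A ratio within a library does not depend on its scaling, and here it was higher in both mutant libraries, where the collagen sum was, for example, at 0.252 of WT in *Dspp*+/- and the SLRP sum at 0.608.

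In the mouse genome most SLRP genes stand in short runs on a chromosome, and the 10 genes were grouped by the positions in the deposited table. The genome build of these positions is not named, and they are not those of GRCm38. *Dcn*, *Lum*, *Kera* and *Epyc* follow each other within 203 kb of chromosome 10 (97315471 to 97518316), with no other gene of the table between them. *Dcn* ends at 97354005, *Lum* spans 97400990 to 97408565, *Kera* 97442741 to 97449554 and *Epyc* starts at 97479930. *Aspn*, *Omd* and *Ogn* lie within 80.1 kb of chromosome 13 (49697919 to 49777977), with *Aspn* ending at 49721041, *Omd* at 49735938 to 49746298 and *Ogn* starting at 49761522, across a gene on the other strand, *Cenpp*, that had 1.02 FPKM in WT. *Prelp* and *Fmod* lie within 138 kb of chromosome 1 (133838042 to 133976015), with *Prelp* ending at 133849152 on the minus strand and *Fmod* starting at 133964992 on the plus strand. *Bgn* stands alone on the X chromosome from 72527208 to 72539539. All of these spans are whole genes, exons and introns together.

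On chromosome 13 each of the 3 genes had less in *Dspp*+/- than in *Dspp*-/-, with log2 ratios between -0.80 and -0.46, and their summed FPKM was 547 in WT, with 408 in *Dspp*+/- and 662 in *Dspp*-/-. On chromosome 10 the 3 genes above the filter were also lower in *Dspp*+/-, between -1.09 and -0.31, with sums over the run of 826, 466 and 781 FPKM. On chromosome 1 the log2 ratios of *Dspp*+/- to *Dspp*-/- were 0.00 for *Fmod* and 0.18 for *Prelp*, and the sums were 1187 in the WT library, 737 in that of *Dspp*+/- and 723 in *Dspp*-/-. Genes of 1 run were not alike in size of change, since *Lum* and *Dcn* in *Dspp*+/- were at 0.437 and 0.772 of WT. The runs were set side by side after their values were seen, and nothing was tested.

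**Figure D4:**
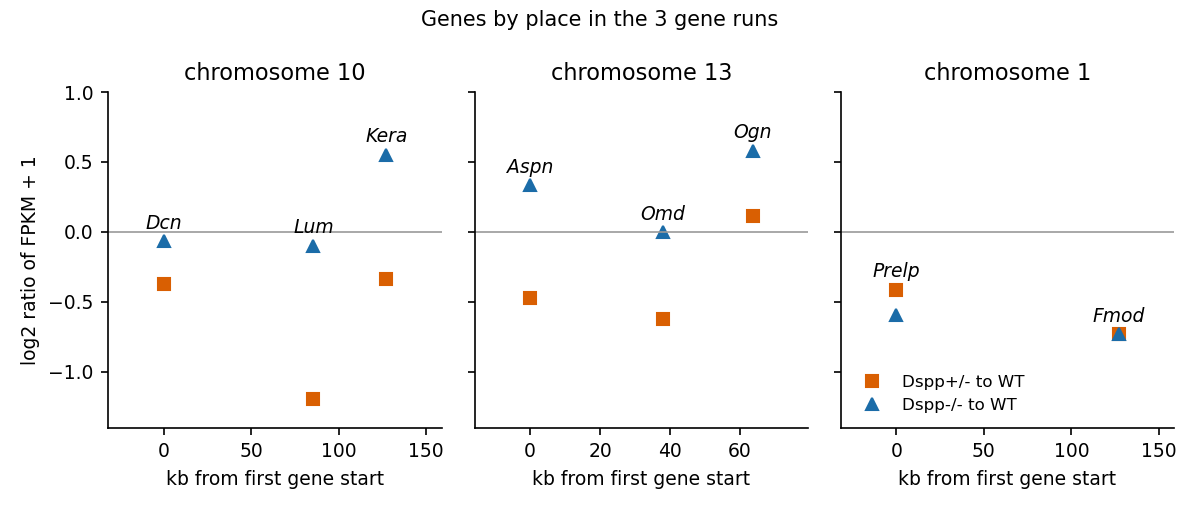
Log2 ratio of FPKM + 1 to WT (vertical axis) against distance in kb from the start of the first gene, for the SLRP genes of the runs on chromosomes 10, 13 and 1 (orange squares *Dspp*+/-, blue triangles *Dspp*-/-; *Epyc* and *Bgn* are not drawn). On chromosome 1 the mutant points lie together below 0, and on chromosomes 10 and 13 each *Dspp*-/- point lies above its *Dspp*+/- point.

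For 8 of the 10 genes RefSeq promoter sequences of GRCm38.p6 were at hand. There was none for *Dcn* or for *Lum*, the member with the lowest fold in *Dspp*+/-, so the motif counts leave both out. The 250 bases before the start are shown for the pair on chromosome 1, which was lower in both mutant libraries, and for *Aspn* and *Ogn* on chromosome 13, which were higher in *Dspp*-/-. Capitals mark matches on either strand to TGTGGT (bound by RUNX factors of osteoblasts), ACAAT (SOX factors of chondrocytes), CAGAC (SMAD proteins), TATAAA (a core promoter element) and GGGCGG (GC box). *Prelp* is read from the minus strand of chr1:133921402-133921651, and the others from the plus strand of chr1:134037004-134037253 for *Fmod*, chr13:49544193-49544442 for *Aspn* and chr13:49607765-49608014 for *Ogn*.
Prelp: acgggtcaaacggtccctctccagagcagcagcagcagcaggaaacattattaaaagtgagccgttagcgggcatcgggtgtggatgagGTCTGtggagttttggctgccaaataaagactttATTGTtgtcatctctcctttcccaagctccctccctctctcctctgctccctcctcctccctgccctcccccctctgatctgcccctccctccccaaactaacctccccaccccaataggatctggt
Fmod: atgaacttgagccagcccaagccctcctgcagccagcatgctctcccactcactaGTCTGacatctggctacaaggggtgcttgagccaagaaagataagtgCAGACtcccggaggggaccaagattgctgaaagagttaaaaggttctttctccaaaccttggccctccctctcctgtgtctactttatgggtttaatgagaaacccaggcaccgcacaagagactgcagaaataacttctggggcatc
Aspn: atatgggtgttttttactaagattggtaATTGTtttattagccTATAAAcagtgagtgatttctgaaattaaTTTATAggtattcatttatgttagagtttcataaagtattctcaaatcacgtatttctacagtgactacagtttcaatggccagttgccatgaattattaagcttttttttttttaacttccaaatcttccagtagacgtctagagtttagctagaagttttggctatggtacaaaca
Ogn: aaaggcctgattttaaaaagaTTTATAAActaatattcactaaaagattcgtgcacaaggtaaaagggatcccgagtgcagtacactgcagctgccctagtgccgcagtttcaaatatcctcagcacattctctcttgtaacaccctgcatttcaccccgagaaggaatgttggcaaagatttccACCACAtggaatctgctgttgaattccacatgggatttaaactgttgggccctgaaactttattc
The CAGAC motif has 2 matches in *Fmod* and 1 in *Prelp*, and among the 8 genes no other gene had it, while 42.2% of 32851 mouse promoter sequences of this length do. TATAAA has 2 matches in *Aspn* and 2 in *Ogn*, the latter overlapping each other, and none in the other 6 genes, against 12.4% of all promoters. The 6 without it include *Kera*, which was also higher in *Dspp*-/-, and *Omd* of the same run as *Aspn* and *Ogn*. The promoters shown were picked by the values of their genes, and a link between a motif and a change was not tested. ACAAT was found in 5 of the 8 genes and in 27.7% of all promoters, TGTGGT in *Ogn* alone (14.0%) and GGGCGG in *Bgn* alone (32.7%). The GC content of these stretches was 55.6% for *Prelp*, 51.2% for *Fmod*, 30.0% for *Aspn*, 42.0% for *Ogn* and 64.4% for *Bgn*. A match to such short letters is a description of the sequence and not a binding site.

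Another 9 genes of the wider SLRP family were examined, and 5 of them passed the filter of 1 FPKM. Of the 5, 4 were lower than WT and 1 was higher in both mutant libraries. Of all genes, 43.7% were lower in *Dspp*+/- and 49.3% in *Dspp*-/-. At least 2-fold lower in *Dspp*+/- were 2, *Podnl1* and *Tsku*, beside 2.86% of all genes. *Chad*, which encodes chondroadherin, a cartilage protein that binds integrins, was close to *Fmod* in level, with 962 FPKM in WT against 643 in *Dspp*+/- and 523 in *Dspp*-/-. Like *Prelp* it was lowest in *Dspp*-/-, with a fold to WT of 0.668 (0.657 to 0.679) in *Dspp*+/- and of 0.544 (0.534 to 0.553) in *Dspp*-/-. *Podnl1*, a podocan-like gene, had 14.3 FPKM in WT, with 3.83 in *Dspp*+/- and 7.43 in *Dspp*-/-. *Tsku*, which encodes tsukushi, a secreted modulator of growth factors, had 13.2, 4.85 and 7.26 FPKM. *Ecm2*, just before *Aspn* on chromosome 13, had 34.2 FPKM in the WT library, 27.4 in that of *Dspp*+/- and 31.7 in *Dspp*-/-, and thus also a higher level in *Dspp*-/- than in *Dspp*+/-. *Podn*, which encodes podocan, was the higher one, with 1.97, 2.63 and 3.20 FPKM. *Optc*, near *Prelp* on chromosome 1, had 4, 1 and 3 fragments, and no fold is given. The median log2 ratio of the 5 genes was -0.58 in *Dspp*+/- and -0.78 in *Dspp*-/-.

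The enzymes that build the sugar chains of these proteoglycans were compared next. Of 23 genes for chondroitin and dermatan sulfate chains, 21 were lower in *Dspp*+/- and 20 in *Dspp*-/-, beside 43.7% and 49.3% of all genes. At least 2-fold lower were 2 and 0 of the 23, beside 2.86% and 1.37% of all genes. The median log2 ratios of the 23 were -0.49 and -0.32. The 2 past the threshold were *Chpf*, with 23.0 FPKM in WT against 10.9 in *Dspp*+/- and 11.8 in *Dspp*-/-, and *Chpf2*, with 8.10, 2.96 and 3.82 FPKM, both of which help chain elongation. *Chst12*, a sulfotransferase and the most abundant of the list in WT, had 27.4, 18.6 and 18.5 FPKM. Of 9 keratan sulfate genes past the filter of 1 FPKM, 7 were lower in each mutant library, beside the same shares of 43.7% and 49.3%. Their median log2 ratios were -0.20 and -0.28, and 1, *Chst1*, was at least 2-fold lower in *Dspp*-/-, beside 1.37% of all genes. *Chst1*, a sulfotransferase for galactose on keratan chains, had 17.8 FPKM in WT, with 10.1 in *Dspp*+/- and 7.85 in *Dspp*-/-, and *Chst5* had 3.15, 1.26 and 1.63. *B4galt1*, the most abundant of that list, had 25.6, 25.8 and 25.7 FPKM and did not differ beyond counting error.

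Proteins that cleave SLRPs or share their fibrils, and the factors and receptors they bind, were counted in the same way. Of 11 proteinases and enhancers past the filter of 1 FPKM, all 11 were lower in both mutant libraries. Of all genes, 43.7% were lower in *Dspp*+/- and 49.3% in *Dspp*-/-. At least 2-fold lower were 8 of the 11 in *Dspp*+/- and 2 in *Dspp*-/-, beside 2.86% and 1.37% of all genes. *Bmp1*, which encodes the proteinase that trims procollagen and the propeptides of biglycan and osteoglycin, had 45.7 FPKM in the WT library, 14.2 in that of *Dspp*+/- and 22.3 in *Dspp*-/-. *Pcolce*, an enhancer of that cleavage, had 106, 35.7 and 51.6 FPKM, and the collagenase gene *Mmp13* had 649, 240 and 487. Of 13 other matrix partners 11 were lower in each library, beside 43.7% and 49.3% of all genes. At least 2-fold lower were 5 and 1 of the 13, beside 2.86% and 1.37% of all genes. *Col6a1* and *Col6a2*, chains of the collagen that biglycan and decorin bind, had 312 and 119 FPKM in WT, 108 and 44.1 in *Dspp*+/- and 182 and 69.2 in *Dspp*-/-. *Fn1*, the fibronectin gene, had 528, 449.8 and 399.7 FPKM. Of 18 genes for growth factors and receptors linked to SLRPs, 16 were lower in *Dspp*+/- and 12 in *Dspp*-/-, beside 43.7% and 49.3% of all genes. At least 2-fold lower were 2 in *Dspp*+/- and 0 in *Dspp*-/-, beside 2.86% and 1.37% of all genes. The 2 were *Ccn2*, a matricellular growth factor gene with 379, 188 and 241 FPKM, and *Tgfb2*, which encodes a TGF-β ligand, with 33.8, 16.2 and 20.4.

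The tissue was checked against marker lists, none of which holds an SLRP. Some share genes with the fibrillar collagens above, such as *Col1a1* in the osteoblast list and *Col2a1* in the chondrocyte list. The values of those lists and of the collagens are thus partly the same. Bone and cartilage genes were abundant in WT (*Col1a1* and *Col2a1*, above), and skeletal muscle was present as well, with *Acta1* at 5609 FPKM. In *Dspp*+/- the SLRP median of -0.47 lay between that of the fibroblast and tendon list (-0.24, 20 genes, summed FPKM 1543 in WT against 745 in *Dspp*+/- and 1138 in *Dspp*-/-) and the median of the osteocyte list (-1.04, 9 genes). This order holds for medians only. By summed FPKM in *Dspp*+/- the fibroblast and tendon list fell further than the SLRPs, whose sum was at 0.608 of WT. The osteoblast list had medians of -1.57 in *Dspp*+/- and -0.88 in *Dspp*-/-, with all 20 genes lower in both and sums of 21349, 5873 and 11654 FPKM. The chondrocyte list had -1.94 and -1.03, with 16 of 18 genes lower and sums of 2006, 615 and 930 FPKM. Beside the counts of these 2 lists, 43.7% of all genes were lower in *Dspp*+/- and 49.3% in *Dspp*-/-. The osteoclast list had -0.999 and -0.57, with sums of 2380, 886 and 1412 FPKM. In *Dspp*-/- the SLRP median of -0.07 was above those of the fibroblast and tendon list (-0.32) and the osteocyte list (-0.92).

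Markers of blood cells were higher in the mutant libraries. The erythroid list had medians of 2.38 and 2.32, and sums of 953, 3840 and 3735 FPKM in WT, *Dspp*+/- and *Dspp*-/-. Of its 13 genes, 12 were at least 2-fold higher in each mutant library, beside 4.88% of all genes in *Dspp*+/- and 4.05% in *Dspp*-/-. The neutrophil list had medians of 1.97 and 2.37, and its sums were 625, 2801 and 3681 FPKM. B cell and platelet lists had medians of 1.282 and 1.67 in *Dspp*+/- and 1.02 and 1.38 in *Dspp*-/-. Endothelial and smooth muscle lists had medians between 0.02 and 0.15 in both libraries. The skeletal muscle list had 0.38 and 0.08, and its genes were mixed. In *Dspp*+/- 4 were lower and 10 higher, with 2 at least 2-fold lower and 1 higher, beside 2.86% and 4.88% of all genes. The 2 were *Myh4*, with 124 FPKM in WT against 18.2 in *Dspp*+/- and 111 in *Dspp*-/-, and *Actn3*, with 122, 31.0 and 89.5. In *Dspp*-/- 6 were lower and 8 higher. The adipocyte list was mixed in *Dspp*+/-, with 5 genes lower and 4 higher and a median of -0.14. All 9 were higher in *Dspp*-/-, with a median of 1.06, and the sums were 126, 199.7 and 254 FPKM. Of all genes, 43.7% were lower in *Dspp*+/- and 49.3% in *Dspp*-/-. The part of these cell types in the SLRP values was not tested.

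**Figure D5:**
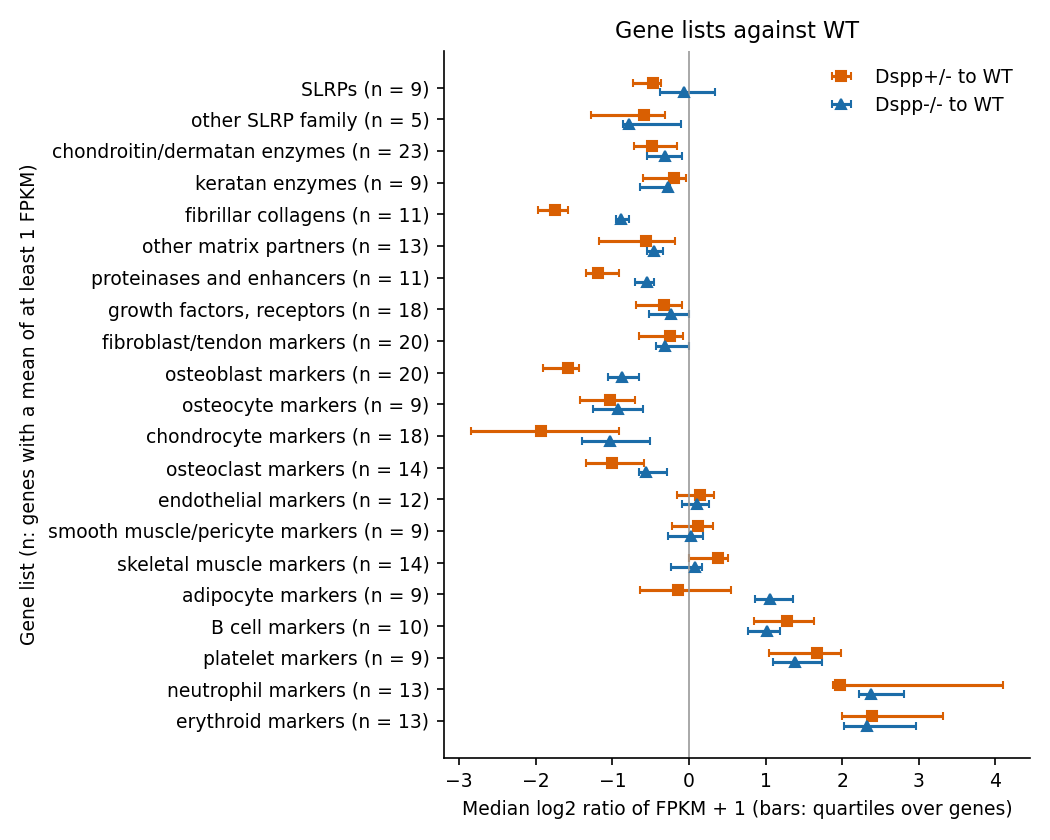
Median log2 ratio of FPKM + 1 to WT for the SLRPs and 20 other gene lists in *Dspp*+/- (orange squares) and *Dspp*-/- (blue triangles), with bars from the lower to the upper quartile over genes and n the genes past the filter of 1 FPKM. The SLRPs lie at -0.47 and -0.07, to the right of the fibrillar collagens at -1.74 and -0.89.

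The genes most like each SLRP over the 3 libraries were sought among 4028 genes whose mean was 10 FPKM or more, by the distance between their pairs of log2 ratios to WT. *Fmod* was nearest to *Vit*, which encodes the matrix protein vitrin (distance 0.013; 29.0 FPKM in WT, 17.0 in *Dspp*+/-, 17.2 in *Dspp*-/-), and to *Jund*. *Bgn* was nearest to *Tmem263* (0.011) and *Colec12*, a collectin (0.017). *Dcn* was nearest to *Tm9sf3* and *H3f3b*, and 54 genes lay within 0.1 of it, so its pattern was a common one. *Prelp* was nearest to *Rras* and *Pfdn5*, *Omd* to *Kctd12* and *Bhlhe40*, and *Ogn* to *1810013L24Rik* and *Mcts1*. *Aspn* had 1 gene within 0.1, *Tef*, and next to that *Mir22hg*. No gene lay within 0.1 of *Lum* or *Kera*. The nearest to *Lum* were *Enpp6* at 0.176 and *Ptn*, which encodes the growth factor pleiotrophin, at 0.197 (31.2, 14.4 and 32.4 FPKM), and the nearest to *Kera* was at 0.108, an immunoglobulin kappa gene, followed by *Tfrc*. With 3 libraries such likeness is easily met, and *Epyc* was left out for its few fragments.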

How the data were processed

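Poly(A)-selected RNA of mandibular condyles was sequenced in read pairs from a kit that does not mark strand, and the authors deposited 1 table with a value per gene for WT, *Dspp*+/- and *Dspp*-/-. The unit of the deposited values is not named, and they were read as FPKM, because value times merged exon length in GENCODE M21 was a whole multiple (within 0.05) of 1 constant per library, in all 3 libraries, for 26163 of the 26652 genes with an exon length. The submitters' processing notes list FastQC 0.11.5, HISAT2 2.1.0, StringTie 1.3.3b and DESeq 1.28.0, and as build hg38, which is a human build. The annotation is not given in the sources used here. The sample description mentions triplicates, and each genotype has 1 value per gene.

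Log2 ratios of FPKM + 1, which understate the change of low genes, were taken over genes whose mean was 1 FPKM or more and called at 2-fold. The study's Kruskal–Wallis test cannot be run on single libraries. Named were all 10 SLRPs, from each related list the gene most abundant in WT and the 2 with the largest change in *Dspp*+/-, the 2 nearest patterns per SLRP and the neighbours of the runs; other genes named were chosen after their values were seen. The 10 genes and all lists were chosen with earlier results of these data known. Alternatives were 10 planned ones and 2 chosen after seeing the data. Recovery was tested on simulated data. Of the 10 SLRPs, *Omd* and the overlapped *Prelp* and *Epyc* share 100-base sequences with other genes (2.28%, 7.09% and 38.3%). Values were computed with pandas 2.3.3 and numpy 2.4.6 in Python 3.11.15, intervals with scipy 1.17.1, and plots were drawn with matplotlib 3.10.9.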

Additional observations from a re-analysis of the deposited data

Results flagged for a closer look

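Of the 10 SLRPs, *Aspn* and *Kera* lay on opposite sides of WT in the mutant libraries, each beyond counting error. The fold of *Aspn* to WT was 0.721 in *Dspp*+/- and 1.26 in *Dspp*-/-. The fold of *Kera* was 0.748 in *Dspp*+/- and 1.56 in *Dspp*-/-. Each genotype has 1 library, so the difference was not tested against the spread between mice.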

How the results depend on the processing

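Over 12 alternatives, the number of SLRPs at least 2-fold lower than WT in *Dspp*+/- was 1 except for 2 (*Lum* and *Bgn*) under a scaling that leaves out hemoglobin, immunoglobulin and skeletal muscle genes, 4 at 1.5-fold and 0 at 4-fold. Beside these, 373 of all 13026 genes were lower in *Dspp*+/- as reported, 572 under that scaling, 1166 at 1.5-fold and 24 at 4-fold. In *Dspp*-/- the number of SLRPs was 0, and 2 at 1.5-fold, beside 179 and 1070 of all genes. The median log2 ratio of the SLRPs in *Dspp*-/- turned from -0.07 to 0.014 under scaling without mitochondrially encoded genes. It turned to 0.043 without their fragments in the depth. Under upper-quartile scaling it was -0.038, and under scaling without hemoglobin, immunoglobulin and muscle genes -0.23. In *Dspp*+/- it went from -0.47 to -0.36 without mitochondrial fragments, to -0.54 under median-ratio scaling and to -0.67 under scaling without hemoglobin, immunoglobulin and muscle genes, and stayed below 0 under every alternative. Of 180 values of single SLRPs under the alternatives, 172 kept their sign. The filters and pseudocounts among the alternatives cannot change the sign of a single gene, so their values kept it by construction. All sign changes came under other scalings or depths. Without mitochondrial fragments, *Dcn* and *Lum* in *Dspp*-/- turned to log2 ratios of 0.043 and 0.0095, and *Dcn* to 0.014 under scaling without mitochondrially encoded genes. *Ogn* in *Dspp*+/- turned to -0.077 under scaling without hemoglobin, immunoglobulin and muscle genes. The other sign changes were those of *Omd* in *Dspp*-/-, which was within counting error of WT. These follow from the construction, since a scaling shifts all genes of a library alike. The shift was -0.20 in *Dspp*+/- and -0.17 in *Dspp*-/- without hemoglobin, immunoglobulin and muscle genes, and 0.12 and 0.11 without mitochondrial fragments. The former scaling sets the summed FPKM of the genes left equal. Summed over all genes, FPKM already differed, at 308500 in WT, 359616 in *Dspp*+/- and 349165 in *Dspp*-/-. With the fragments of hemoglobin, immunoglobulin and muscle genes left out of the depth instead, the shift was 0.023 and 0.011. The calls over all genes were 63.0% higher in *Dspp*+/- and 74.6% in *Dspp*-/-, and 44.6% and 57.2% under the summed-FPKM scaling without those genes. Over all genes, the 636 higher and 373 lower genes of *Dspp*+/- became 971 and 605 with a pseudocount of 0.1, 185 and 156 with 5, 281 and 272 at a mean of at least 5, 1501 and 1166 at 1.5-fold, 124 and 24 at 4-fold, and 460 and 572 under that scaling. The 527 and 179 of *Dspp*-/- became 836 and 363, 136 and 45, 228 and 110, 1152 and 1070, 103 and 6, and 422 and 316 in the same order. Leaving out a replicate was not possible, and no paired analysis was possible because each genotype has 1 library.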
